A study of Mus musculus with 9 samples.

Results

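The genes described here encode transcription factors of the adrenergic core circuit of neuroblastoma: Phox2a, Hand2, Gata2, Gata3, Isl1, Insm1, Tbx2 and Mycn. They were found in the deposited expression table by their annotated gene symbol, with 1 probe set per gene, that of the highest mean over the 9 arrays. Of the 8 genes, 7 were measured among 22180 genes in all. Phox2a, a homeodomain factor required for noradrenergic neurons, was listed by 1 probe set that the annotation also assigns to Inppl1, so it was given no value. Gata3 had 2 probe sets of its own and the other 6 measured genes 1 each.

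The cells were N1E-115, a mouse neuroblastoma line derived from the C1300 tumour, so every array reports on descendants of 1 tumour. There were 3 groups of 3 arrays. In the first, cells carried 80 nM of an siRNA pool against Hmgn5, a nucleosome-binding chromatin protein, and were collected at 24 h. In the other groups cells carried 80 nM control siRNA and were collected at 24 h or at 4 h. All cells had been starved overnight without serum and replated on laminin at 10 µg/ml, conditions in which they extend neurites, and no untransfected or undifferentiated cells are among these arrays. The study asked what Hmgn5 does in neurite outgrowth, and the comparisons here ask whether the factors' transcripts differed with the siRNA at 24 h or between the times in control cells.

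In sympathetic neuroblasts these factors bind together at enhancers of their own genes and of each other's, a closed loop that holds noradrenergic identity. PHOX2A and HAND2 are induced by bone morphogenetic protein signals in sympathetic precursors, GATA2, GATA3 and ISL1 maintain the neurons that follow, and the circuit drives the genes of catecholamine synthesis and storage. In human neuroblastoma the adrenergic state set by this circuit is opposed to a mesenchymal state, and MYCN, often amplified in such tumours, binds many of the same enhancers.

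None of the 7 measured factors passed in any of the 3 comparisons between groups. To pass, a gene needed a limma p-value, adjusted by Benjamini-Hochberg over all genes, under a threshold of 0.05. That none passed does not show that the factors were unchanged. Their unadjusted limma intervals reached up to 0.65 log2 units at knockdown (Isl1) and down to -0.59 between the times (Tbx2). At knockdown the adjusted p-values were 0.926 to 0.999, between the times in control cells 0.165 to 0.945. The largest difference at knockdown was that of Isl1, 1.26-fold, and the largest between the times that of Tbx2, 0.827-fold, which rested on 1 array: without control 24 h replicate 3 it was -0.11 log2 units and that of Gata3, 0.22, was larger. Over the same 24 h versus 4 h comparison 3 of 18 effector genes of the circuit rose, where 2.17% of all genes did. They were Th, Dbh and Slc18a1, with 0.53 to 0.80 log2 units, and the median of the 18 was 0.10. The effector list was chosen with earlier results of these data known, so its count is no independent support. The Th call was lost without any 1 of the control 24 h arrays.

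Promoter windows are shown for a pair of factors and a pair of effectors, since the factors are known to bind their own genes. Windows were available for 6 of the 8 factors, from RefSeq on GRCm38.p6, and are the 250 bases before the transcription start. Capitals mark letters searched on both strands: GATAA for GATA factors, CANNTG for E-box proteins such as HAND2, TAATTA for homeodomain factors, CACGTG for MYC and MAX, and AGGTGTGA for T-box factors. CACGTG is also a CANNTG. Hand2 and Isl1 are shown because theirs were the windows among the measured factors that held both GATA and E-box letters, and Dbh and Th because they rose with time. Slc18a1 rose too, but no window was available for it.
Hand2, chr8:57320733-57320982 on the plus strand of GRCm38.p6: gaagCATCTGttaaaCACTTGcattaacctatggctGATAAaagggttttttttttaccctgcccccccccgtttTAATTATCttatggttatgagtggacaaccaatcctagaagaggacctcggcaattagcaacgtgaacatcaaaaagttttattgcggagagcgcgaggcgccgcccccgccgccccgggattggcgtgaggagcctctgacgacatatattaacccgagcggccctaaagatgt
Isl1, chr13:116309689-116309938 on the minus strand of GRCm38.p6: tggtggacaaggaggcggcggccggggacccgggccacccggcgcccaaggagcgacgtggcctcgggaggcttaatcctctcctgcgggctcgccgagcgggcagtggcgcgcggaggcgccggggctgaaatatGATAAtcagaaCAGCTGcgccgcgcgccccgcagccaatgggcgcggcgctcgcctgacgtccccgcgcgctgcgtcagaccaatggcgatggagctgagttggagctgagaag
Dbh, chr2:27165257-27165506 on the plus strand of GRCm38.p6: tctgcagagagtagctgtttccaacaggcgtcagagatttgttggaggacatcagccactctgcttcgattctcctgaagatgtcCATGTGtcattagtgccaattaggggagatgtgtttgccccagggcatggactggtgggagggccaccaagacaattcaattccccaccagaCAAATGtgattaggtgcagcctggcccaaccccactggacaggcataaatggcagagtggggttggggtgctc
Th, chr7:142899996-142900245 on the minus strand of GRCm38.p6: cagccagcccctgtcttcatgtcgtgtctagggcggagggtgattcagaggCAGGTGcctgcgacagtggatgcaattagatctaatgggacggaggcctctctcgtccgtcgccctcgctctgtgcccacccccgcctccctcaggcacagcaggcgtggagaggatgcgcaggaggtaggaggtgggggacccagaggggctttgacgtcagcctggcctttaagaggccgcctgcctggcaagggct
The Hand2 window held 2 GATAA, 2 CANNTG and 1 TAATTA, where the TAATTA overlaps a GATAA on the other strand. The Isl1 window held 1 GATAA and 1 CANNTG, the Dbh window 2 CANNTG and the Th window 1. The Phox2a window held 1 GATAA and the Mycn window 1 CANNTG. Neither the Gata3 window nor the 2 listed for Gata2 held any of these letters. Of all 32851 windows of this length, 22.6% held GATAA, 66.2% CANNTG, 4.84% TAATTA, 6.02% CACGTG and 1.12% AGGTGTGA. A match says only that the letters are there.

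Hmgn5 signal was lower on the arrays labelled Hmgn5 siRNA. It had log2 values of 3.53, 3.45 and 3.50 with Hmgn5 siRNA at 24 h, 4.77, 4.66 and 4.69 with control siRNA at 24 h, and 4.53, 4.23 and 4.57 with control siRNA at 4 h. The 24 h groups did not overlap (limma adjusted p = 0.00367), and the difference did not pass without Hmgn5 siRNA replicate 2 or 3, without control 24 h replicate 1 (adjusted p up to 0.0558) or without both 24 h arrays numbered 3 (adjusted p = 0.200). All its values lay below the 95th percentile of olfactory and vomeronasal receptor genes on the same array, a level used here as background, so the size of the knockdown cannot be read from this probe set. That level was 4.998 to 5.25 log2 units. All 7 factors lay above it on all 9 arrays, by 1.40 to 2.06 for Mycn and by 5.74 to 6.23 for Hand2. Of the 9 arrays, control 4 h replicate 2 had the lowest weight that limma estimates from an array's scatter, 0.198 against 0.789 to 1.74 for the rest. Of 8 measured markers of sympathetic neuroblasts, 7 were above background on all arrays, among them Th, Chga and Stmn2, and Ddc, the decarboxylase of dopamine synthesis, was on none. Among other cell types, 1 of 7 leukocyte markers, 3 of 6 glial, 5 of 8 fibroblast and 3 of 7 endothelial markers were above background on all 9 arrays.

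**Figure D1:**
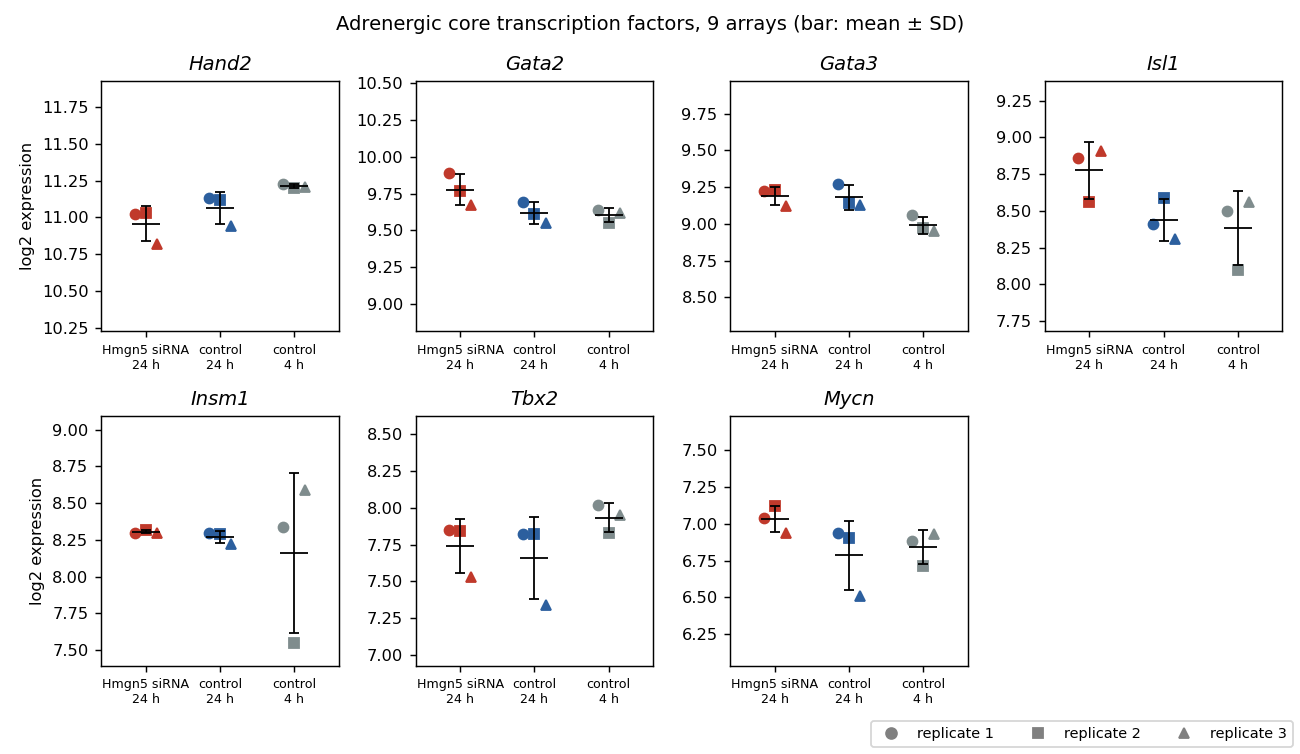
Log2 expression of the 7 measured factors on each array, by group from left to right, with 1 panel per gene and the same height of scale in each; symbols mark replicate numbers and bars the mean ± SD of 3 arrays. Hand2, Gata3 and Tbx2 are the genes whose control 24 h values do not overlap the control 4 h values, and for no gene are the Hmgn5 siRNA and control values at 24 h separate.

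Hand2 encodes a basic helix-loop-helix factor that sympathetic precursors need to become noradrenergic. Its values were 11.02, 11.03 and 10.82 with Hmgn5 siRNA at 24 h, 11.13, 11.12 and 10.94 with control siRNA at 24 h, and 11.23, 11.20 and 11.21 with control siRNA at 4 h. The order of the groups was thus Hmgn5 siRNA at 24 h lowest and control at 4 h highest, with overlapping values between the siRNAs and none between the times. The difference was -0.11 at knockdown (SE 0.08, limma adjusted p = 0.984) and -0.15 between the times (SE 0.08, adjusted p = 0.370), and neither passed. Hmgn5 siRNA at 24 h against control at 4 h, in which siRNA and time differ together, gave -0.25 with a 95% interval of -0.43 to -0.08 (adjusted p = 0.139). That was the smallest unadjusted p of any factor in any comparison, 0.00913.

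The 3 genes whose pattern over the 9 arrays was most like that of Hand2 were found by the root mean square difference of log2 values, each gene centred on its own mean. They were Taf1a, a subunit of the RNA polymerase I selectivity factor, with a difference of 0.0336 log2 units, Slc26a10, of an anion transporter family, with 0.0452, and Arid4b, a subunit of a histone deacetylase complex, with 0.0452. The median over all genes was 0.173. Taf1a had 8.23, 8.30 and 8.09 with Hmgn5 siRNA at 24 h, 8.36, 8.38 and 8.16 with control siRNA at 24 h, and 8.50, 8.44 and 8.53 at 4 h. As for Hand2, the third array was the lowest of each 24 h group. Taf1a was picked for its likeness on these same arrays, so this is no separate observation.

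Gata2 and Gata3 encode zinc finger factors that bind the same core letters and keep sympathetic neurons noradrenergic. Gata2 stood at 9.89, 9.77 and 9.67 with Hmgn5 siRNA at 24 h, at 9.69, 9.61 and 9.55 with control siRNA at 24 h, and at 9.64, 9.55 and 9.62 at 4 h. The lowest knockdown array thus lay just under the highest control array of that time, and the control groups overlapped throughout. Its difference was 0.16 at knockdown, 1.12-fold (SE 0.07, unadjusted p = 0.0531, limma adjusted p = 0.951), and 0.015 between the times (adjusted p = 0.945).

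Gata3 stood at 9.22, 9.23 and 9.12 with Hmgn5 siRNA at 24 h, at 9.27, 9.14 and 9.13 with control siRNA at 24 h, and at 9.06, 8.97 and 8.95 at 4 h. All 6 arrays of 24 h lay above all 3 of 4 h. The difference was 0.0086 at knockdown (95% interval -0.14 to 0.16) and 0.19 between the times, 1.14-fold (SE 0.07, unadjusted p = 0.0188, limma adjusted p = 0.165). The other Gata3 probe set, with values of 6.25 to 6.74, gave 0.0042 at knockdown and 0.22 between the times (adjusted p = 0.262 over all probe sets). Whether the time differences of Gata2 and Gata3 differ from each other was not tested.

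Isl1 encodes a LIM-homeodomain factor of sympathetic and sensory neurons. It had 8.86, 8.56 and 8.91 with Hmgn5 siRNA at 24 h, 8.41, 8.59 and 8.31 with control siRNA at 24 h, and 8.50, 8.10 and 8.56 at 4 h. Of the knockdown arrays, replicates 1 and 3 were the highest of all 9, while replicate 2 lay within the control range. The difference of 0.34 was the largest of any factor at knockdown and had a 95% interval of 0.03 to 0.65, or 1.02- to 1.57-fold. Its unadjusted p was 0.0358 and its limma adjusted p 0.926, so it did not pass over all genes. Between the times the difference was 0.05 (SE 0.14, adjusted p = 0.885).

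Insm1 encodes a zinc finger repressor of neuroendocrine precursors that works through the LSD1 demethylase complex. At 24 h its values hardly varied, with 8.30, 8.32 and 8.30 under Hmgn5 siRNA and 8.30, 8.29 and 8.22 under control siRNA. At 4 h they were 8.34, 7.55 and 8.59, a spread (SD 0.54) that was the widest of any factor in any group. The low value was on control 4 h replicate 2. The difference was 0.04 at knockdown and 0.11 between the times (SE 0.21 for each, limma adjusted p = 0.999 and 0.843). Since all groups share 1 estimate of spread, the scatter at 4 h also widened the knockdown interval, which ran from -0.43 to 0.50.

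Tbx2 encodes a T-box repressor of cell cycle inhibitor genes such as Cdkn1a. Its values were 7.85, 7.84 and 7.53 with Hmgn5 siRNA at 24 h, 7.82, 7.82 and 7.34 with control siRNA at 24 h, and 8.02, 7.83 and 7.95 at 4 h. The control arrays of 24 h all lay below those of 4 h, with the nearest at 7.82 and 7.83, and replicate 3 was far below the others in both 24 h groups. The difference was 0.08 at knockdown (SE 0.14, limma adjusted p = 0.999) and -0.27 between the times, with an interval of -0.59 to 0.04 (adjusted p = 0.345). Without control 24 h replicate 3 these differences were -0.08 and -0.11 (adjusted p = 1 and 0.701).

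Mycn encodes the MYC family factor that heterodimerises with MAX at E-boxes. It had 7.04, 7.12 and 6.94 with Hmgn5 siRNA at 24 h, 6.94, 6.90 and 6.51 with control siRNA at 24 h, and 6.88, 6.71 and 6.93 at 4 h. The knockdown arrays were the highest, with 1 of them level with the top control array of 24 h, and they lay above every array of 4 h. The difference was 0.25 at knockdown, 1.19-fold (SE 0.12, unadjusted p = 0.0598, limma adjusted p = 0.975), and -0.06 between the times (adjusted p = 0.855). Without control 24 h replicate 3 the knockdown difference was 0.11 and that between the times 0.08.

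**Figure D2:**
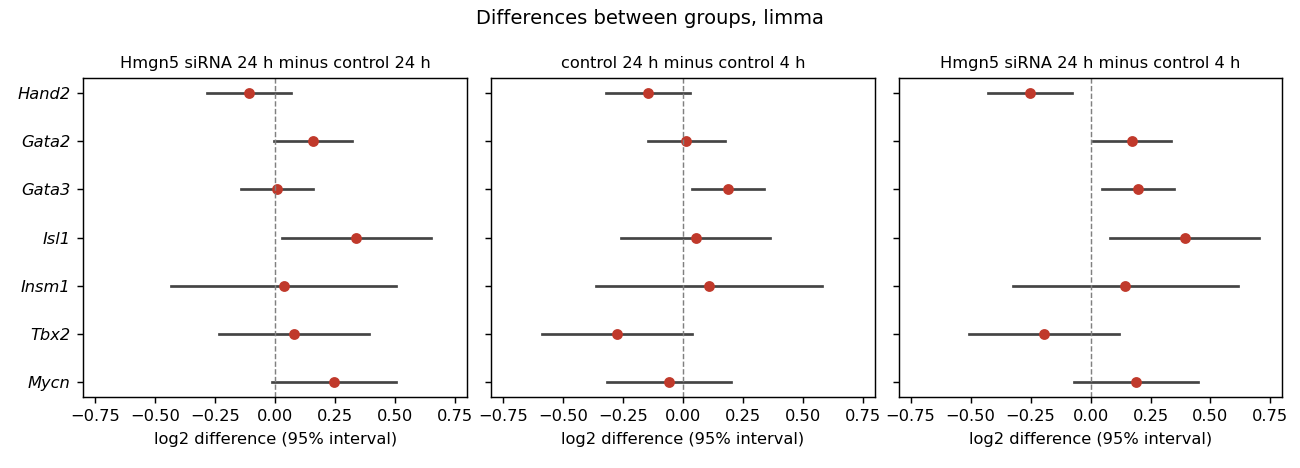
Log2 differences of the 7 factors (points) with their unadjusted 95% intervals from limma (lines) for the 3 comparisons, 1 panel each, with genes down the side. Intervals leave out 0 for Isl1 at knockdown, for Gata3 between the times, and for Hand2, Gata2, Gata3 and Isl1 where siRNA and time differ together, and none of these passed after adjustment.

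The factors' counts are set beside the shares of all genes. At knockdown 0 of 7 passed the adjusted threshold, where 0.0135% of all genes did. At an unadjusted p under 0.05 there was 1 of 7, Isl1, against 5.25% of genes, and no factor had groups without overlap, against 12.3%. Between the times 0 of 7 passed against 4.34% of genes. Gata3 alone had an unadjusted p under 0.05, against 18.0% of genes, and 3 of 7 had groups without overlap, against 21.3%. For Hmgn5 siRNA at 24 h against control at 4 h, 0 of 7 passed against 2.57%, 4 of 7 had an unadjusted p under 0.05 against 15.7%, and 4 of 7 did not overlap against 18.9%. The comparisons share arrays, so these counts are not separate pieces of evidence. The exact two-sided permutation p of a single factor cannot go below 0.1 with 3 arrays against 3.

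The median difference of the 7 factors was 0.08 at knockdown, with 6 above 0 and 1 below, and the median over all genes was -0.0019. This split depended on control 24 h replicate 3. Without that array Gata3 (-0.018) and Tbx2 (-0.082) also lay below 0, as Hand2 did (-0.17). Isl1 (0.27), Gata2 (0.12), Mycn (0.11) and Insm1 (0.012) lay above 0. Between the times the median of the 7 factors was 0.015, with 4 above and 3 below, and the median over all genes was 0.016. The median size of a difference, sign left aside, was 0.11 for the factors at knockdown against 0.062 for all genes, and 0.11 against 0.093 between the times. The factors' 95% intervals reached down to -0.43 (Insm1) and up to 0.65 (Isl1) at knockdown, and down to -0.59 (Tbx2) and up to 0.58 (Insm1) between the times.

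The factors varied together with single arrays. Control 24 h replicate 3 was the lowest array of its group for 7 of 7 factors, on average 0.15 log2 units under the group mean, and Hmgn5 siRNA replicate 3 was the lowest of its group for 5 of 7. Control 4 h replicate 2 was the lowest of its group for 6 of 7, on average 0.17 under it. Over all genes these arrays were the lowest of their group for 33.1%, 33.3% and 37.5% of genes. When both 24 h arrays numbered 3 were dropped, which was decided once these values had been examined, no factor passed in any comparison. The knockdown differences of Mycn and Isl1 were then 0.16 and 0.21. Without control 4 h replicate 2 the time difference of Insm1 was -0.20 (limma adjusted p = 0.196) and that of Isl1 -0.089.

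**Figure D3:**
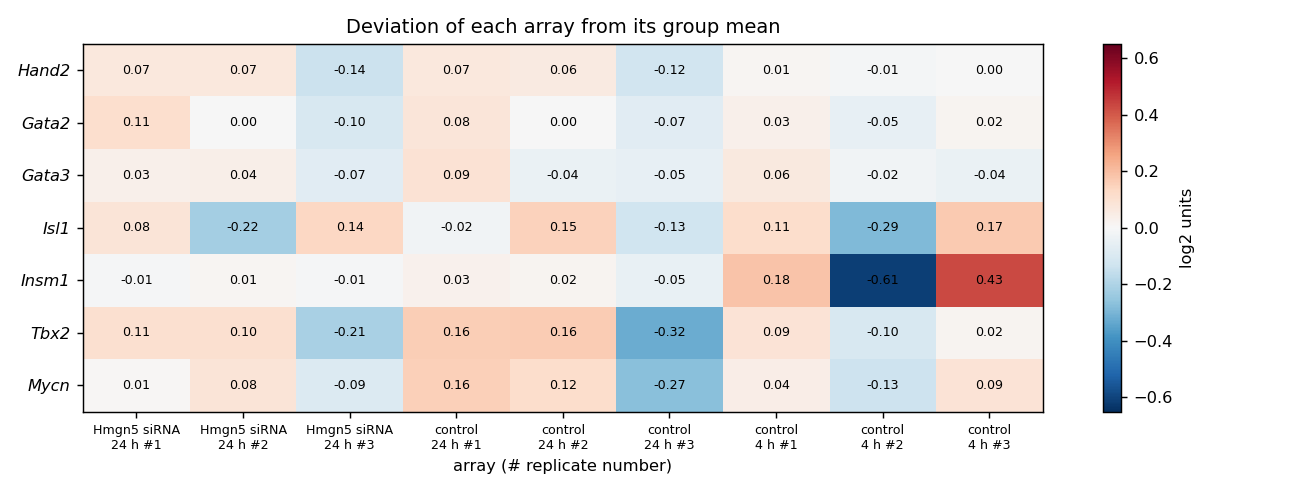
Deviation in log2 units of each array (columns) from the mean of its own group of 3, for each factor (rows), with the value printed in the cell and blue for values below the mean. The column of control 24 h replicate 3 is below the mean throughout, and the lowest cell is Insm1 on control 4 h replicate 2 at -0.61.

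Other genes of the circuit, from lists of known partners, targets and opposing factors, were then read in the same fit. The lists were chosen with earlier results of these data known, which limits what their counts show. At knockdown 0 of the genes on these 9 lists passed in either direction in limma, where 0.00902% of all genes rose and 0.00451% fell. Of 127 measured, 13 had an unadjusted p under 0.05 there, where 5.25% of all genes did. Between the times 11 of the 127 passed, where 2.17% of all genes rose and 2.17% fell.

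Among the other adrenergic core factors, 1 of 14 measured rose with time and 0 fell, with a median difference of 0.12. Pbx3, a homeodomain cofactor of HOX and MEIS proteins, had 9.20, 9.19 and 9.38 at 24 h and 8.73, 9.05 and 8.74 at 4 h in control cells, a difference of 0.41 (SE 0.10, limma adjusted p = 0.0475). It passed without control 4 h replicate 2 and lost its call with any other single array left out (adjusted p up to 0.160). In Hmgn5 siRNA cells at 24 h against control cells at 4 h, where 1.52% of genes rose and 1.04% fell, 2 of the 14 rose. They were Dach1, a nuclear corepressor (0.41, adjusted p = 0.0162), and the Notch target Hey1 (0.25, adjusted p = 0.0473). Dach1 no longer passed without any 1 knockdown array or control 4 h replicate 1 or 3, with adjusted p up to 0.0763. Hey1 passed without control 4 h replicate 2 and in no other fit with 1 array removed (up to 0.147).

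Partners of the GATA, HAND and LIM proteins had 1 of 20 measured rise with time and 0 fall, with a median of 0.03. That gene was Meis2, a homeodomain factor that acts with PBX proteins. It had 8.76, 8.96 and 8.87 at 24 h and 8.21, 8.57 and 8.05 at 4 h in control cells, so the groups did not overlap. Its difference was 0.59 (SE 0.12, limma adjusted p = 0.0249), and it no longer passed without any 1 control 24 h array or control 4 h replicate 1 or 3, with adjusted p up to 0.101. Of 12 corepressors of INSM1 and TBX2, 0 rose and 1 fell, Rcor3 of the CoREST family, by 0.39 (adjusted p = 0.0469). The Rcor3 call held without Hmgn5 siRNA replicate 2 or control 24 h replicate 3 and was lost without any other array (up to 0.160).

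In the MYC and MAX network 0 of 14 genes rose with time and 1 fell. Max, the obligate partner of MYC proteins, had 9.83, 9.93 and 9.95 at 24 h and 10.25, 10.42 and 10.29 at 4 h in control cells, without overlap. It fell by 0.42 on the log2 scale (SE 0.07, limma adjusted p = 0.0102), and passed with any 1 array left out (adjusted p 0.0120 to 0.0481). In a fit of the 2 control groups alone it did not pass (adjusted p = 0.052). With Hmgn5 siRNA it had 9.96, 9.94 and 10.00 at 24 h, and its knockdown difference was 0.06 (adjusted p = 0.999). Against control cells at 4 h the Hmgn5 siRNA cells had a Max difference of -0.35 (adjusted p = 0.0271), a call lost without any 1 knockdown array, control 24 h replicate 2 or control 4 h replicate 3 (up to 0.108). Of 9 genes that act on MYCN stability or lie by its locus, 0 rose with time in control cells and 1 fell. It was the deubiquitinase gene Usp7, by 0.36 (limma adjusted p = 0.0215). That call was lost without any 1 of the control 24 h arrays (adjusted p up to 0.0817). None of 16 MYCN target genes passed in either direction in any comparison. Between the times 3 were above 0 and 13 below, with a median of -0.08. At knockdown 13 were above 0 and 3 below, with a median of 0.06. The members of smallest p in any comparison were Mdm2, the p53 ubiquitin ligase, and lactate dehydrogenase A, Ldha. Their differences between the times were -0.30 (limma adjusted p = 0.0544) and -0.18 (adjusted p = 0.186).

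The adrenergic effector genes had 3 of 18 rise with time and 0 fall, with 15 differences above 0 and a median of 0.10. Th, the rate-limiting enzyme of catecholamine synthesis, had 11.29, 11.19 and 11.25 at 24 h and 10.80, 10.58 and 10.76 at 4 h in control cells (difference 0.53, limma adjusted p = 0.0188). Dbh, which makes noradrenaline, had 11.63, 11.53 and 11.68 at 24 h and 10.93, 10.55 and 10.97 at 4 h (0.80, adjusted p = 0.00534). Slc18a1, a vesicular monoamine transporter, had 8.73, 8.60 and 8.93 at 24 h and 7.97, 7.87 and 8.03 at 4 h (0.80, adjusted p = 0.00398). For each of these genes the groups were apart by more than the spread within them. The Dbh and Slc18a1 calls held with any 1 array left out, and the Th call was lost without any 1 of the control 24 h arrays (adjusted p up to 0.0774). The mean level of the sympathetic marker list moved with them, at 9.83 to 9.84 at 24 h and 9.46 to 9.69 at 4 h in control cells. That list holds Th, its only called member, and without it the mean of the other 7 was 9.62 to 9.64 at 24 h and 9.298 to 9.535 at 4 h. The other 7 still include Ddc, Slc18a2 and Chga of the effector list, so the marker list is not separate from the effectors. The mean of the glial list was 5.58 to 5.66 at 24 h and 5.36 to 5.51 at 4 h, and its S100b was above background on no array. The part of either in these results was not tested. At knockdown 3 of the 18 effector genes were above 0 and 15 below, with a median of -0.04, and 0 passed. An unadjusted p under 0.05 was found there for 4 of the 18, against 5.25% of all genes. Dbh had 11.27, 11.19 and 11.11 with Hmgn5 siRNA at 24 h, all below the control values of that time, a difference of -0.42 (SE 0.11, unadjusted p = 0.00306, adjusted p = 0.595). In Hmgn5 siRNA cells at 24 h against control cells at 4 h, Slc18a1 rose by 1.02 (adjusted p = 0.00219) and Th by 0.46 (adjusted p = 0.0439), and Th no longer passed once any 1 array was removed (adjusted p up to 0.0987). Dbh did not pass there (0.38, adjusted p = 0.115). Fewer cells of a type and less RNA per cell cannot be told apart in bulk RNA.

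Of 8 genes known to be repressed by TBX2 or INSM1, 0 rose and 2 fell with time. Ndrg1, a stress-responsive growth inhibitor gene, fell by 0.34 (limma adjusted p = 0.0114), and Cdkn1a, the p21 inhibitor of cyclin-dependent kinases, fell by 0.34 (adjusted p = 0.0468). Tbx2 itself had the time difference of -0.27 that did not pass, and that was -0.11 without control 24 h replicate 3. Ndrg1 has 2 probe sets, and with their mean in place of the brighter one its difference was -0.14 and did not pass (adjusted p = 0.351). Its call was also lost without control 24 h replicate 2 (adjusted p = 0.0539), and the Cdkn1a call without any array but control 4 h replicate 2 (up to 0.157). Of 17 mesenchymal neuroblastoma factors 0 rose and 1 fell with time, with a median of 0.03. Wwtr1, the YAP-related coactivator TAZ, had 6.54, 6.45 and 6.46 at 24 h and 7.26, 7.02 and 7.28 at 4 h in control cells, and 6.72, 6.72 and 6.93 with Hmgn5 siRNA at 24 h. It fell by 0.71 (adjusted p = 0.00398) and passed with any 1 array left out. All its Hmgn5 siRNA values lay above the control values of 24 h, but its knockdown difference of 0.31 did not pass. The limma p was 0.00639 unadjusted and 0.742 adjusted. At knockdown 12 of the 17 mesenchymal factors were above 0 and 5 below, with a median of 0.06, and 0 passed. An unadjusted p under 0.05 was found there for 4 of the 17, against 5.25% of all genes.

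**Figure D4:**
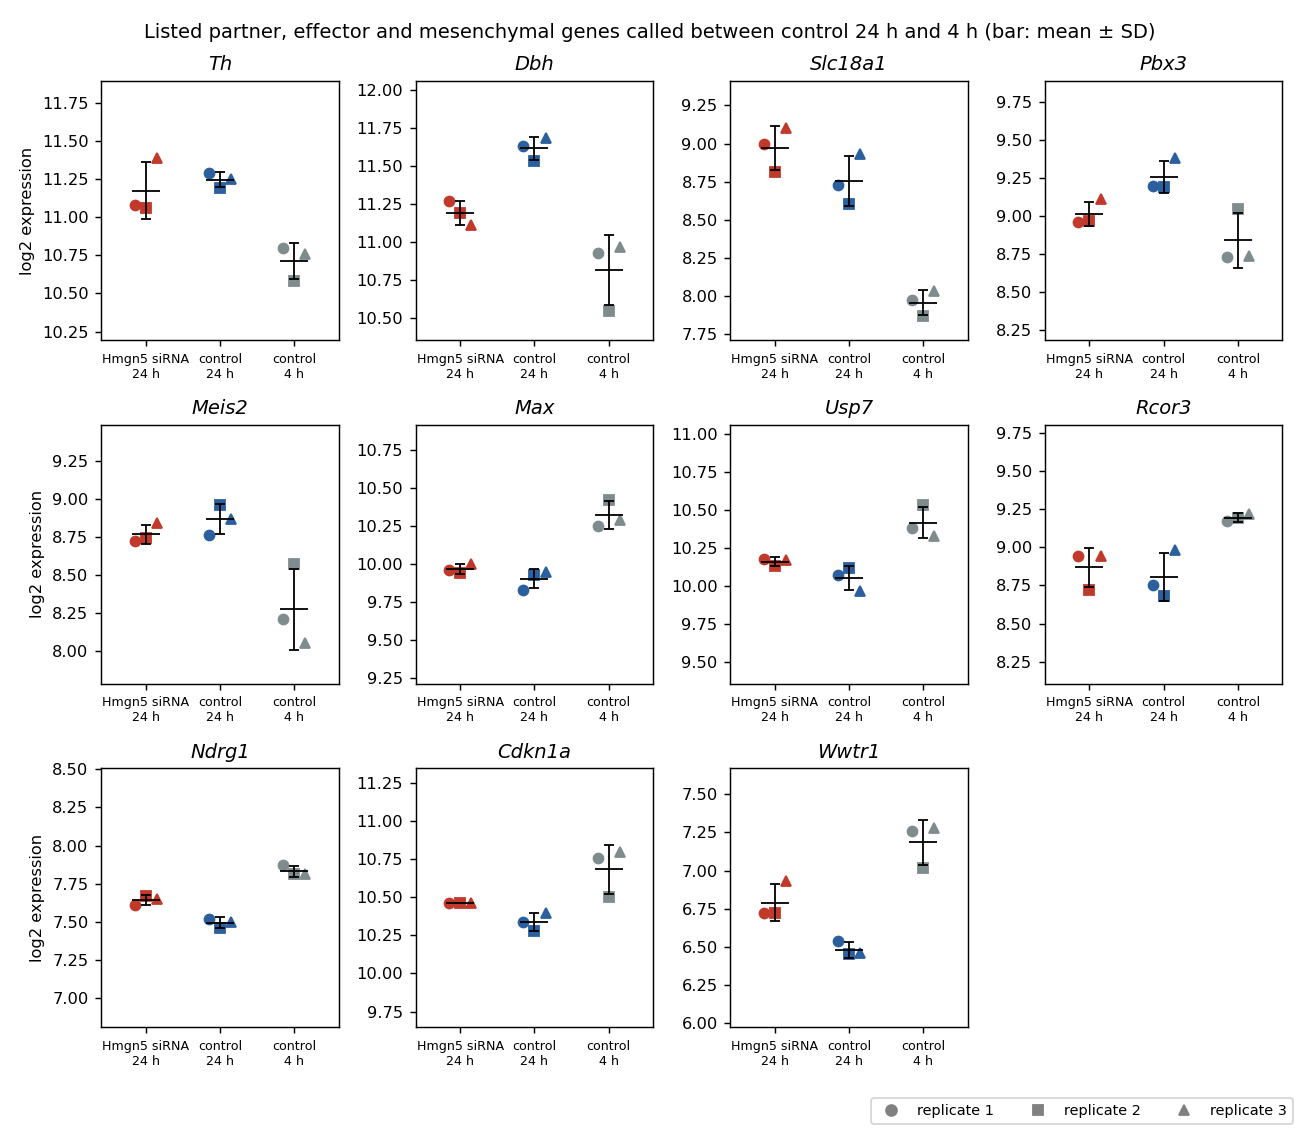
Log2 expression of the 11 listed genes called between the times in control cells, by group from left to right, on panels of equal height; symbols mark replicate numbers and bars the mean ± SD of 3 arrays. Th, Dbh, Slc18a1, Pbx3 and Meis2 are higher at 24 h than at 4 h in control cells, and Max, Usp7, Rcor3, Ndrg1, Cdkn1a and Wwtr1 are lower.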

How the data were processed

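Total RNA of 9 samples was measured on Affymetrix whole-transcript arrays, 1 per sample. As deposited, the values are log2 signals of probe sets, made with oligo and RMA, without versions, per the submitters' processing notes. Array medians were 5.16 to 5.30. Of 41345 probe sets, 23521 had 1 gene symbol, 1814 several and 16010 none, and those with several or none were not used. The brightest probe set stood for a gene. Groups came from sample titles. The labels name no separate cultures: p-values reflect only how these arrays scatter, which may be technical, and the number of arrays limits the precision.

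All 9 arrays entered 1 limma fit (limma 3.58.1, R 4.3.3, lmFit and eBayes) of group means, with Benjamini-Hochberg adjustment over 22180 genes, tested on simulated data. The members and lists were chosen with earlier results of these data known. Named genes are the members, Hmgn5, every called list gene, or the 2 of smallest p on a list with none, and the 3 genes of most alike pattern. Same-numbered arrays of different groups had deviations correlated at 0.0085 to 0.285, above 0.1 for 2 of 9 pairs. Differently numbered arrays of different groups had -0.221 to 0.081. Between the 24 h groups, arrays numbered 1, 2 and 3 had 0.184, 0.089 and 0.285. The main fit did not take the numbers as pairing, and a fit with them as a block is given below. Promoter windows are RefSeq's. A genome build for the array is not given in the sources used here.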

Additional observations from a re-analysis of the deposited data

How the results depend on the processing

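No factor passed in any of the 3 comparisons under any of the 20 alternatives, which were 9 that each left out 1 array and 11 others. The count was 0 of 7 in each, and leaving out 1 array gave 0 throughout. The lowest adjusted p under any alternative was 0.0838, for Gata3 with array weights in Hmgn5 siRNA at 24 h against control at 4 h. With the replicate number as a block the adjusted p-values were 0.858 to 0.998 at knockdown and 0.144 to 0.935 between the times. The block left 893 genes called between the times against 963, and 1 at knockdown against 3, and lost the time call of Pbx3 (adjusted p = 0.0652) and the Hey1 call of Hmgn5 siRNA at 24 h against control at 4 h (0.0792). Of 420 recomputed differences 402 kept their direction, but many of these could not turn, so the count does not measure robustness. Alternatives that changed only the estimate of spread, the test or the genes tested gave the same difference. Leaving out an array outside the comparison also left it the same. The 18 that turned belong to 7 differences, each of 0.14 or less in size before, and the cause was not tested. A test against a minimum change of 1.5-fold called neither Hmgn5 (adjusted p = 0.559 at knockdown) nor any listed gene named here. Cyclic loess lost the calls of Pbx3 (0.0684) and Hey1 (0.0725), testing every probe set that of Pbx3 (0.05004), and a robust prior (0.0567) and median centring (0.0589) that of Hey1. The fit of only the 2 control groups lost the time calls of Max, Meis2, Pbx3, Rcor3, Ndrg1, Cdkn1a and Usp7, and leaving out both 24 h arrays numbered 3 lost those and that of Dbh (adjusted p = 0.0505). For Hmgn5 siRNA at 24 h against control at 4 h, a fit of only those 2 groups lost the calls of Dach1, Hey1, Max and Th. Leaving out both 24 h arrays numbered 3 lost the same calls. The 3 arrays per group limit what can be seen.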

Other observations

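The probe set annotated to both Phox2a and Inppl1, whose signal belongs to neither gene alone, had log2 values of 9.65, 9.73 and 9.61 with Hmgn5 siRNA at 24 h, 9.67, 9.60 and 9.53 with control siRNA at 24 h, and 9.58, 8.99 and 9.59 with control siRNA at 4 h. Its low value was on control 4 h replicate 2, the array on which Insm1 was also low. It entered no comparison.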
